A study of Neurospora crassa with 12 samples.

Results

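These 120 genes of Neurospora crassa, of 10592 in the count table, made up a set of abundant transcripts that stood several times higher in germinating than in fresh conidia. They were selected on the measured values themselves. Values are CPM, a count divided by the library's total and multiplied by 1000000. The total was taken without 2 ribosomal RNA rows, and a gene entered the set if the lowest of its mean CPMs in stages 2, 3 and 4 was at least 100, and at least 4 times but below 16 times its mean in stage 1. Of 1584 genes with at least 100 CPM in all 3 later stages, the 2 ribosomal RNA rows included, 1431 fell under the 4-fold limit and 33 reached the 16-fold limit. Another 254 genes had the same ratio at less than 100 CPM. The ratio to stage 1 is therefore given below as a description of the set and not as a result. Tests were confined to stages 2, 3 and 4, whose lowest mean was also part of the rule.

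The libraries came from wild-type strain FGSC2489 (mating type A), germinated on cellophane over Bird medium at 37 °C in constant white light, with 3 libraries per stage from RNA bound to oligo(dT) beads. Stage 1 was fresh conidia, stage 2 the first polar growth, stage 3 the doubling of the long axis and stage 4 the first branching of the hypha. The sample titles place these stages at 15, 60, 120 and 240 min, the time-point labels place them at 15, 120, 240 and 360 min, and the source label names another medium, potato dextrose agar. The study's methods give roughly the times of the titles for Bird medium at 37 °C, and those of the time-point labels for potato dextrose agar. The titles thus match the methods, and stages rather than times are used here. Each replicate pooled material of several plates from one collection, so fewer cells of one kind and less RNA per cell cannot be told apart.

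The libraries held 42275448 to 66876710 counts outside the 2 ribosomal RNA rows, which took 37.7% of all counts in stage 3 replicate 2 and 1.68 to 11.3% in the others. The libraries labelled stage 4 were as close to those labelled stage 2 as replicates of one stage were to each other. The mean chi-square per gene between pairs of libraries was 12.9 to 36.4 for stage 4 against stage 2, 19.7 to 32.8 within stage 2 and 31.0 to 40.4 within stage 4, whereas it was 180 to 265 for stage 4 against stage 3 and 191 to 272 for stage 3 against stage 2. Sampling noise alone would give about 1 in this measure. The measure cannot tell separate collections from separate preparations of the same RNA, so it does not settle how the stage 2 and stage 4 libraries were related. Whether these stage labels are right cannot be told from the counts, and stage 2 and stage 4 below stand for the libraries so labelled. Transcripts of fresh conidia marked the stages as follows: the hydrophobin eas and the conidiation genes con-6, con-8 and con-10 together had 12083 to 15336 CPM in stage 1, 97.6 to 102 CPM in stage 2, 10.3 to 12.1 CPM in stage 3 and 79.9 to 112 CPM in stage 4. The marker level thus moved with stage 3 as well, and its part in the differences below was not tested.

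A dormant conidium holds stored transcripts and, on wetting and feeding, restarts protein synthesis, respiration and wall growth before a germ tube emerges. Some systems recur among the selected genes. The proteasome is a barrel of alpha and beta subunits (the 20S core) capped by a 19S particle that unfolds and feeds in proteins marked with ubiquitin. The vacuolar ATPase pumps protons into the vacuole, with a soluble V1 sector that splits ATP and a V0 sector in the membrane that carries the protons. Young germlings of N. crassa also seek each other and fuse, a process that needs paired MAP kinase pathways, an NADPH oxidase and a group of hyphal anastomosis (ham) genes.

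**Figure D1:**
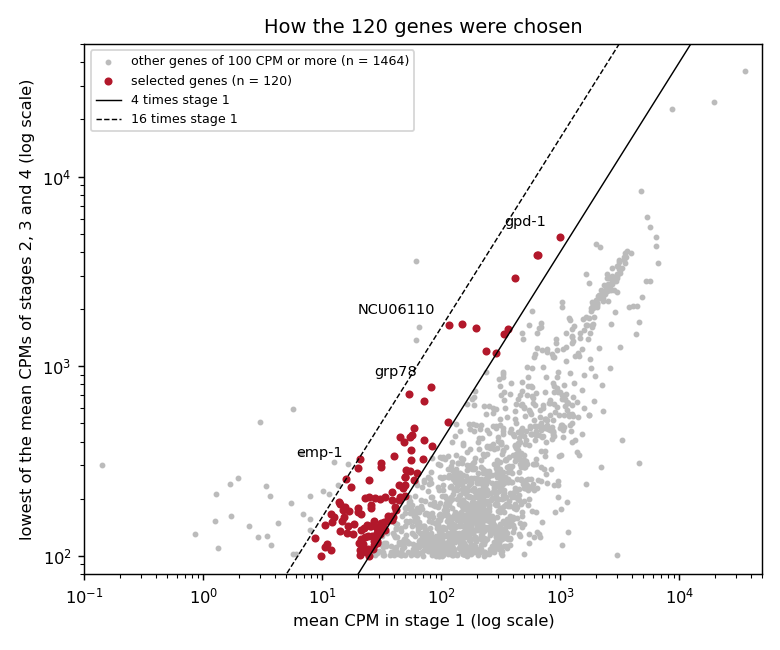
Each point is a gene with at least 100 CPM in stages 2, 3 and 4, with its mean CPM in stage 1 on the x axis and the lowest of its mean CPMs in the later stages on the y axis, both on log scales. The 120 selected genes (red) lie between the 4-fold line and the 16-fold line, and 1464 other genes (grey) lie outside them.

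All 120 genes were protein coding in the RefSeq table, 54 had a gene symbol and 66 only a locus tag. Their ratio to stage 1 had a median of 5.70, and 81 of them (67.5%) were under 8-fold. In all 120 genes, each of the 9 later libraries was above each of the 3 libraries of stage 1. The 4-fold limit of the rule left little room for another outcome. Together the 120 genes took 0.792% ± 0.0298 of the counts in stage 1, 5.21% ± 0.114 in stage 2, 5.77% ± 0.0144 in stage 3 and 5.21% ± 0.102 in stage 4 (SD, n = 3 each). The median coefficient of variation between libraries over the 120 genes was 7.86% in stage 1, 3.62% in stage 2, 5.73% in stage 3 and 4.79% in stage 4. The lowest count of any of them in any library was 479.

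Members near the limits show how the rule cut the set. NCU01768 at 4.03-fold and pca-2 at 4.04-fold were just inside the lower limit, and NCU03258 at 3.99-fold and NCU02475 at 3.97-fold just outside. NCU04645 at 15.9-fold and NCU04732 at 15.4-fold were just inside the upper limit, and NCU06989 at 16.9-fold and NCU09307 at 17.1-fold just outside. By level, NCU02219 and NCU00903 were inside, both at 100.1 CPM, while NCU03319 at 98.8 CPM and vma-13 at 97.0 CPM were not. Several pathways below were split by these limits, and their other genes are therefore given too.

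The most abundant members had varied roles. Per kilobase of gene span, gpd-1, which encodes glyceraldehyde-3-phosphate dehydrogenase, was first at 2328 CPM per kb over stages 2 to 4. The others of the first 10 were emp-7 (1285 CPM per kb), nmt-1 (1274), met-8 (1085), NCU06110 (913), acw-9 (707), por (659), csr-1 (639), fba (632) and ndk-1 (614). The median over the 120 genes was 82.2 CPM per kb. Spans include introns, so these levels are per length of the gene and not of the transcript.

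The gpd-1 gene (NCU01528; chromosome II, bases 3180104 to 3182245 of NC12) had 907, 1071 and 1019 CPM in the libraries of stage 1, 4972, 5072 and 5033 CPM in stage 2, 5004, 4358 and 5056 CPM in stage 3, and 4878, 5404 and 5102 CPM in stage 4. The later stages overlapped. The fba gene (NCU07807), for fructose-bisphosphate aldolase, had 147, 161 and 138 CPM in stage 1, 1719, 1709 and 1688 CPM in stage 2, 1877, 2076 and 1850 CPM in stage 3, and 1606, 1754 and 1666 CPM in stage 4. Its stage 3 libraries were above those of stages 2 and 4, but neither difference passed the test (log2 change 0.13 ± 0.073 for stage 3 against stage 2, adjusted p = 0.19 by edgeR; 1 SE, as for all log2 changes below). The emp-7 gene (NCU10042), named for the Embden-Meyerhof-Parnas pathway, had 533 to 755 CPM in stage 1 and 3643 to 4193 CPM over the 9 later libraries.

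Of 8 glycolysis genes, 5 were members. The emp-1 gene had the highest ratio to stage 1 of these, at 14.6-fold, and emp-3 stood at 7.69-fold. The pgk gene, for phosphoglycerate kinase, went past the upper limit at 24.6-fold, while emp-6 at 3.86-fold and ace-8 at 2.45-fold stayed below the lower one. Of 17 genes named for the citric acid cycle, only tca-16 was a member, at 5.31-fold, and the other 16 ranged from 0.572-fold to 2.92-fold. Between stages 3 and 2, emp-1 (log2 change 0.20 ± 0.062, adjusted p = 0.020), emp-3 (0.20 ± 0.073, adjusted p = 0.046) and tca-16 (0.30 ± 0.068, adjusted p = 0.0031, edgeR) were higher in stage 3, while pgk (-0.35 ± 0.11, adjusted p = 0.023) and emp-6 (-0.24 ± 0.079, adjusted p = 0.030) were lower. Over the list, 2 of 8 glycolysis genes were higher and 2 lower, where 20.8% and 18.3% of all 8334 genes tested were. These calls were small, and of 20 alternative settings 3 lost that of emp-1 (without stage 2 replicate 1, stage 2 replicate 3 or stage 3 replicate 2), 9 that of emp-3, 4 that of pgk and 5 that of emp-6, with adjusted p up to 0.078, 0.14, 0.079 and 0.091. The call for pgk was lost without any 1 stage 2 library or stage 3 replicate 2, that for emp-6 without these or stage 3 replicate 3, and that for emp-3 without any 1 stage 2 library or replicate 1 or 3 of stage 3 or stage 4, among other settings.

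Other abundant members had single roles. The met-8 gene (NCU06512), for methionine synthase, had 551, 672 and 674 CPM in stage 1, 3731, 3983 and 3899 CPM in stage 2, 4382, 4004 and 4445 CPM in stage 3, and 3859, 3941 and 3803 CPM in stage 4. The por gene (NCU04304), for the pore protein of the mitochondrial outer membrane, had 348 to 384 CPM in stage 1 and 1558 to 1772 CPM over the later libraries, a ratio of 4.30. All 7 genes for the outer membrane import machinery (tom) on the same list lay between 0.637-fold and 1.09-fold. The ndk-1 gene, for nucleoside diphosphate kinase, was higher in stage 3, at 1371, 1477 and 1376 CPM, than in stage 2, at 1207, 1206 and 1205 CPM (log2 change 0.17 ± 0.052, adjusted p = 0.020, edgeR). That call was lost without any 1 of the stage 2 libraries (adjusted p up to 0.072). The inl gene, for inositol-phosphate synthase, was likewise higher in stage 3 (0.24 ± 0.066, adjusted p = 0.011; 0.056 without stage 3 replicate 1), as was gsy-1, for glycogen synthase (0.30 ± 0.067, adjusted p = 0.0035). The csr-1 gene encodes a cyclophilin and differed by 0.13 ± 0.056 (adjusted p = 0.076) for stage 3 against stage 2 and by -0.15 ± 0.056 (adjusted p = 0.044) for stage 4 against stage 3, a call that 13 of 20 alternative settings lost (adjusted p = 0.011 to 0.15).

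The grp78 gene (NCU03982), for the Hsp70 chaperone of the endoplasmic reticulum, was the only member on the list of 11 heat shock genes. It had 73.2, 96.8 and 76.0 CPM in stage 1, 713, 756 and 871 CPM in stage 2, 794, 810 and 785 CPM in stage 3, and 803, 739 and 895 CPM in stage 4, a ratio of 9.51. The other 10 heat shock genes lay between 0.510-fold and 1.97-fold. No difference among the later stages passed the test for grp78 (log2 change -0.02 ± 0.11 for stage 3 against stage 2, adjusted p = 0.89, edgeR).

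The proteasome lists held 29 subunit genes found by symbol, which may not be all of them. Of these, 19 were members, 9 of 13 in the 20S core and 10 of 16 in the 19S particle. The members ranged from 4.04-fold (pca-2) to 10.6-fold (rpn-3), at mean levels of 106 to 264 CPM over stages 2 to 4. Of the 10 subunit genes outside the set, 9 lay between 2.44-fold and 3.60-fold, and rpn-6 had a ratio of 8.06 but too low a level at 96.4 CPM. All 29 listed genes were thus at least 2.44-fold over stage 1. In contrast, rpn-4, whose yeast namesake is the transcription factor of proteasome genes, had 485, 549 and 534 CPM in stage 1 and 31.3 to 43.0 CPM over the 9 later libraries.

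**Figure D2:**
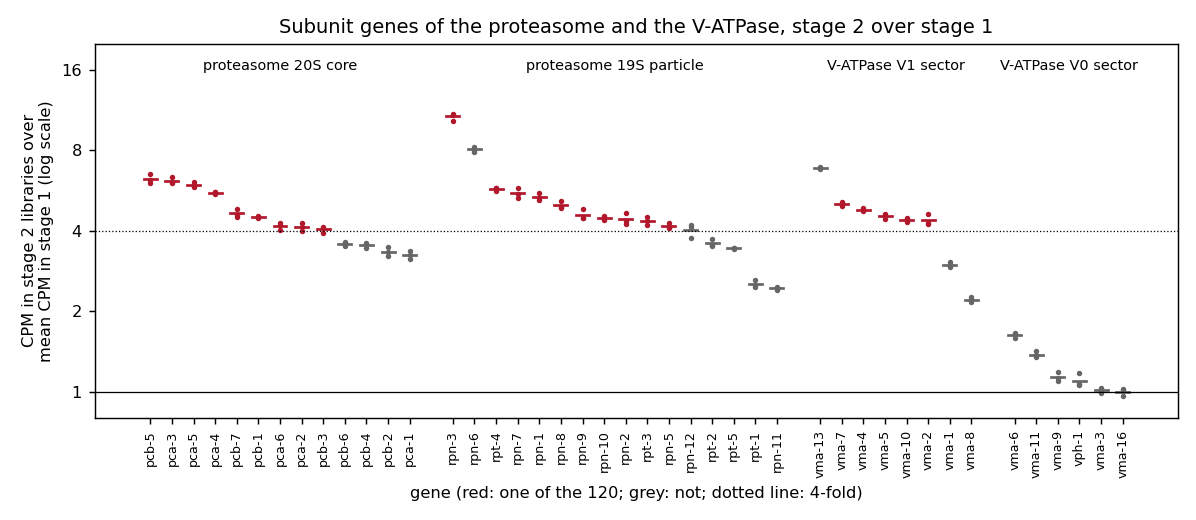
Points give the CPM of each stage 2 library over the mean CPM of stage 1, on a log scale, and bars give the ratio of the means, for genes of the proteasome and the V-ATPase. Selected genes are red and the others grey. Proteasome genes lie between 2.44-fold and 10.7-fold, V1 genes between 2.21-fold and 6.86-fold, and V0 genes between 1.00-fold and 1.63-fold.

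Among proteasome members, pcb-1 (NCU09290), a beta subunit, had 51.6, 44.8 and 39.7 CPM in stage 1, 202, 206 and 205 CPM in stage 2, 196, 242 and 200 CPM in stage 3, and 217, 199 and 209 CPM in stage 4. The rpn-1 gene (NCU07721), for the large scaffold subunit of the 19S particle, had 48.1, 51.4 and 48.0 CPM in stage 1, 255, 261 and 273 CPM in stage 2, 263, 262 and 260 CPM in stage 3, and 262, 255 and 281 CPM in stage 4. Both genes overlapped among the later stages. The rpn-3 gene (NCU02224) had 15.4, 14.4 and 15.6 CPM in stage 1, 156, 165 and 167 CPM in stage 2, 180, 157 and 181 CPM in stage 3, and 156, 160 and 166 CPM in stage 4. Its stage 1 level was the lowest of the 19 members, and its ratio of 10.6 the highest. The alpha subunit gene pca-6 was at 4.10-fold and rpn-2, for the other large scaffold subunit, at 4.41-fold.

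After stage 2 the proteasome genes moved little. Of the 19 members, 15 did not pass the test for stage 3 against stage 2. The other 4 were higher in stage 3, a share close to the 20.8% over all genes: pcb-5 (log2 change 0.26 ± 0.055, adjusted p = 0.0026), pcb-3 (0.23 ± 0.084, adjusted p = 0.048), pca-3 (0.22 ± 0.065, adjusted p = 0.016) and rpt-3 (0.17 ± 0.049, adjusted p = 0.014, edgeR). The call for pca-3 was lost without stage 2 replicate 1 (adjusted p = 0.061) or stage 3 replicate 2 (adjusted p = 0.056), that for rpt-3 without stage 2 replicate 2 (adjusted p = 0.063) or stage 3 replicate 1 (adjusted p = 0.060), and that for pcb-3 under 12 of 20 settings (adjusted p up to 0.16), which included leaving out any 1 library of stage 2 or stage 4, stage 1 replicate 2, or stage 3 replicate 1 or 2. Over the whole lists, 5 of 13 core genes were higher and 0 lower, and 4 of 16 genes of the 19S particle were higher and 1, rpn-12, lower (-0.28; adjusted p = 0.055 without a scaling factor), where 20.8% of all genes were higher and 18.3% lower. The medians were 0.13 for the core and 0.05 for the 19S particle, against 0 over all 8334 genes tested.

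The V-ATPase split by sector. Of 8 V1 genes, vma-2, vma-4, vma-5, vma-7 and vma-10 were members, and the ratios of the 8 ran from 2.21 (vma-8) to 6.83 (vma-13). Of 6 V0 genes none was a member, and their ratios ran from 0.973 to 1.57. The vma-2 gene (NCU08515), for the regulatory subunit of V1, had 64.3, 62.5 and 60.7 CPM in stage 1, 264, 268 and 289 CPM in stage 2, 273, 287 and 270 CPM in stage 3, and 268, 269 and 287 CPM in stage 4. The vma-5 gene stood at 4.53-fold over stage 1 and did not pass the test for stage 3 against stage 2 (log2 change -0.06 ± 0.055, adjusted p = 0.42, edgeR). Of the V1 members only vma-4 passed the test between the later stages, with 175, 194 and 173 CPM in stage 3 and 141, 142 and 144 CPM in stage 2 (log2 change 0.29 ± 0.056, adjusted p = 0.0011, edgeR). Of the V0 genes, 2 of 6 were higher in stage 3 (20.8% of all genes were), vph-1 by 0.22 and vma-3 by 0.18, and each call was lost under 4 of 20 settings. These left out stage 2 replicate 1, stage 2 replicate 2 or stage 3 replicate 1 for both genes, stage 3 replicate 3 for vph-1 and stage 2 replicate 3 for vma-3 (adjusted p up to 0.13).

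The comparisons among stages 2, 3 and 4 ask how the set moved after the first polar growth. They are not free of the rule, which used the lowest of these means. A low stage 3 mean admitted genes whose stage 2 mean was past the 16-fold limit, such as NCU04732 (23.47-fold in stage 2), gh47-4 (18.2-fold) and ham-7 (17.8-fold). At the lower limits a low stage 3 mean instead kept genes out. Without the stage 3 libraries, 111 of the 120 members stayed in the set. How far the rule shaped the counts below was not tested. For stage 3 against stage 2, 28 of the 120 genes (23.3%) were higher, where 20.8% of all 8334 genes tested were, and 31 (25.8%) were lower, where 18.3% of all genes were. Of 1582 tested genes with at least 100 CPM in stages 2 to 4, members included, 16.6% were higher and 22.5% lower. For stage 4 against stage 3, 31 of the 120 (25.8%) were higher, where 18.2% of all genes were, and 24 (20%) were lower, where 20.8% of all genes were. These 2 comparisons share the 3 stage 3 libraries. Both splits turned without a scaling factor, to 35 higher and 29 lower for stage 3 against stage 2 and to 28 higher and 34 lower for stage 4 against stage 3. For stage 4 against stage 2, edgeR called 0 of the 120 genes, where 0% of all genes were called. At an unadjusted p below 0.05 the counts were 0 of the 120 genes and 138 of all 8334 genes (edgeR). With independent libraries and no difference, a share of 0.05 would fall below that limit, and both counts were under it. The p-values of this comparison thus ran high, and its 0 calls carry little weight. Whether the stage 2 and stage 4 libraries were independent was not tested. DESeq2 called 0 of the 120 and 2 of all genes.

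The changes were small in most members. The median absolute log2 change over the 120 genes was 0.18 for stage 3 against stage 2, 0.17 for stage 4 against stage 3 and 0.02 for stage 4 against stage 2. Over all genes with at least 100 CPM it was 0.16, 0.16 and 0.02 for the same comparisons. Only 3 of the called members changed by at least 2-fold for stage 3 against stage 2, and 3 for stage 4 against stage 3. The signed median over the 120 genes was 0.01 for stage 3 against stage 2 and -0.01 for stage 4 against stage 3, on a scale that places the median of all genes at 0 and -0.0014. Without a scaling factor the members' medians were 0.058 and -0.061, where those of all genes were 0.053 and -0.053.

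**Figure D3:**
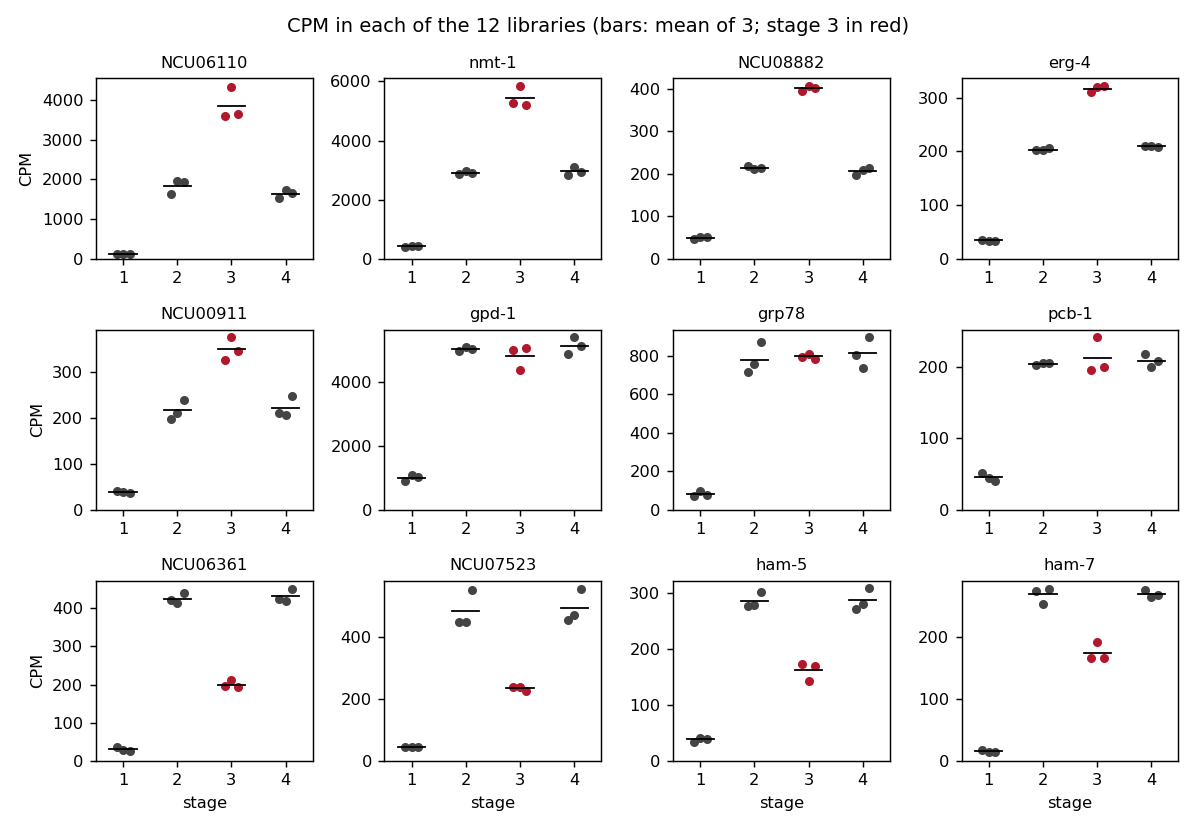
CPM (y axis, from 0) in each of the 12 libraries for 12 members, with stages 1 to 4 on the x axis, points for libraries, bars for the mean of 3 and stage 3 in red. The 3 stage 3 libraries stand above stages 2 and 4 for NCU06110, nmt-1, NCU08882, erg-4 and NCU00911, below them for NCU06361, NCU07523, ham-5 and ham-7, and among them for gpd-1, grp78 and pcb-1.

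The members with higher values in the stage 3 libraries than in those of stages 2 and 4 were led by NCU06110 (chromosome VII, bases 1764461 to 1767138 of NC12), which has no symbol in the RefSeq table. It had 120, 115 and 115 CPM in stage 1, 1618, 1964 and 1941 CPM in stage 2, 3585, 4332 and 3646 CPM in stage 3, and 1522, 1741 and 1661 CPM in stage 4. It was higher in stage 3 than in stage 2 by 1.01 ± 0.089 on the log2 scale (adjusted p = 1.7e-06) and lower in stage 4 than in stage 3 (-1.18 ± 0.089, adjusted p = 5.1e-07, edgeR). Its span overlaps that of NCU06111.

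Next was NCU08882 (chromosome V), with 45.4, 49.9 and 52.0 CPM in stage 1, 217, 212 and 214 CPM in stage 2, 396, 407 and 403 CPM in stage 3, and 198, 208 and 214 CPM in stage 4 (log2 change 0.85 ± 0.070 for stage 3 against stage 2, adjusted p = 9.6e-07, and -0.91 ± 0.070 for stage 4 against stage 3, adjusted p = 5.7e-07, edgeR). The nmt-1 gene (NCU09345, chromosome II) had 386, 427 and 432 CPM in stage 1, 2862, 2976 and 2884 CPM in stage 2, 5282, 5831 and 5209 CPM in stage 3, and 2839, 3106 and 2934 CPM in stage 4 (0.85 ± 0.076, adjusted p = 1.9e-06, and -0.82 ± 0.076, adjusted p = 2.5e-06). NCU00911 (chromosome I) had 41.0, 37.6 and 36.2 CPM in stage 1, 198, 210 and 239 CPM in stage 2, 325, 375 and 345 CPM in stage 3, and 211, 206 and 247 CPM in stage 4 (0.64 ± 0.078, adjusted p = 2.9e-05, and -0.60 ± 0.078, adjusted p = 4.8e-05). In each of these genes the stage 3 libraries did not overlap those of stage 2 or stage 4, which was a condition for naming them here.

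Both members on the list of sterol and isoprenoid genes were also higher in stage 3. The erg-4 gene (NCU03006), a sterol 24-C-methyltransferase, had 35.0, 33.5 and 33.3 CPM in stage 1, 202, 202 and 206 CPM in stage 2, 310, 319 and 321 CPM in stage 3, and 210, 209 and 209 CPM in stage 4. It was higher in stage 3 than in stage 2 by 0.59 ± 0.048 (adjusted p = 1.0e-06) and lower in stage 4 than in stage 3 (-0.55 ± 0.048, adjusted p = 1.9e-06, edgeR). The fpp gene, for farnesyl diphosphate synthase, which makes the precursor shared by sterols and carotenoids, was higher in stage 3 by 0.21 ± 0.050 (adjusted p = 0.0054). Over the list of 5 genes, 4 were higher in stage 3 and 0 lower, with a median of 0.41, where 20.8% and 18.3% of all genes were. The others were al-3, for geranylgeranyl diphosphate synthase (0.67), and erg-1 (0.41), neither of which reached the 4-fold limit.

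Of 20 genes of the germling fusion machinery, 6 were members. Of these, ham-5, ham-6, ham-7 and nox-1 were lower in stage 3 than in stage 2, while adv-1 and ham-9 did not pass the test. The ham-5 gene (NCU01789), for the scaffold of the MAK-2 kinase pathway, had 34.4, 41.4 and 39.6 CPM in stage 1, 276, 278 and 303 CPM in stage 2, 172, 143 and 169 CPM in stage 3, and 272, 280 and 309 CPM in stage 4. It was lower in stage 3 than in stage 2 (log2 change -0.87 ± 0.099, adjusted p = 1.5e-05, edgeR) and higher in stage 4 than in stage 3 (0.88 ± 0.099, adjusted p = 1.5e-05). The ham-7 gene (NCU00881), for a wall sensor upstream of the MAK-1 kinase, had 17, 13.5 and 14.6 CPM in stage 1, 274, 253 and 277 CPM in stage 2, 166, 192 and 166 CPM in stage 3, and 275, 264 and 268 CPM in stage 4.

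The decrease of ham-7 in stage 3 was -0.67 ± 0.071 (adjusted p = 8.3e-06, edgeR). The nox-1 gene, for an NADPH oxidase, had 149, 154 and 148 CPM in stage 3 and 207, 209 and 233 CPM in stage 2 (-0.58 ± 0.077, adjusted p = 5.9e-05), and ham-6 was lower by less (-0.22 ± 0.074, adjusted p = 0.032). The ham-6 call was lost without a scaling factor (adjusted p = 0.12) and without stage 2 replicate 1, stage 2 replicate 3, stage 3 replicate 2 or stage 3 replicate 3 (adjusted p up to 0.14). The values were nearer 0 for the transcription factor gene adv-1 (-0.07 ± 0.065, adjusted p = 0.41) and for ham-9 (-0.04 ± 0.093, adjusted p = 0.77). Over the whole list 13 of 20 genes were lower in stage 3 and 0 higher, with a median of -0.32, where 18.3% of all genes and 22.5% of those with at least 100 CPM were lower and 20.8% and 16.6% were higher. For stage 4 against stage 3, 12 were higher and 0 lower, where 18.2% and 20.8% of all genes were. Genes outside the set fell as far: the MAP kinase kinase gene mek-1 by 1.14, so, whose product gathers at the tips of fusing cells, by 1.09, and nor-1, for the regulator of NADPH oxidase, by 0.93. The ham-8 gene, at 24.8-fold over stage 1, was past the upper limit and lower in stage 3 (-0.56).

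Of 3 members on the list of 21 wall genes, chs-3 and gfa1 were lower in stage 3. The chs-3 gene, for a chitin synthase, had 147, 159 and 149 CPM in stage 3 and 187, 183 and 208 CPM in stage 2 (-0.40 ± 0.064, adjusted p = 0.00031, edgeR). The gfa1 gene, for the enzyme of the first committed step towards the chitin precursor, had 314, 344 and 314 CPM in stage 3 and 401, 406 and 418 CPM in stage 2 (-0.39 ± 0.083, adjusted p = 0.0024). The third, acw-9, had 2192, 1602 and 2145 CPM in stage 3 and 1465, 1534 and 1782 CPM in stage 2 and did not pass the test (0.26 ± 0.13, adjusted p = 0.12). On the whole list 10 genes were lower in stage 3 and 4 higher, where 18.3% and 20.8% of all genes were.

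The gh47-4 gene (NCU05836), a mannosidase gene of glycoside hydrolase family 47, had 15, 14.8 and 14 CPM in stage 1, 261, 254 and 284 CPM in stage 2, 153, 156 and 146 CPM in stage 3, and 254, 260 and 284 CPM in stage 4. It was lower in stage 3 by 0.86 on the log2 scale (-0.86 ± 0.060, adjusted p = 2.4e-07, edgeR). It was the only member among 8 genes of this family. Of the 7 tested, 3 were lower and 1 higher in stage 3, with a median of 0.03, where 18.3% and 20.8% of all genes were. The pkac-1 gene, for a catalytic subunit of the cAMP-dependent protein kinase, stood at 10.5-fold over stage 1 and was lower in stage 3 (-0.35 ± 0.080, adjusted p = 0.0038). The other catalytic gene, pkac-2, was at 2.36-fold, and mcb, for the regulatory subunit, was at 1.18-fold. Neither passed the test between stages 3 and 2.

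**Figure D4:**
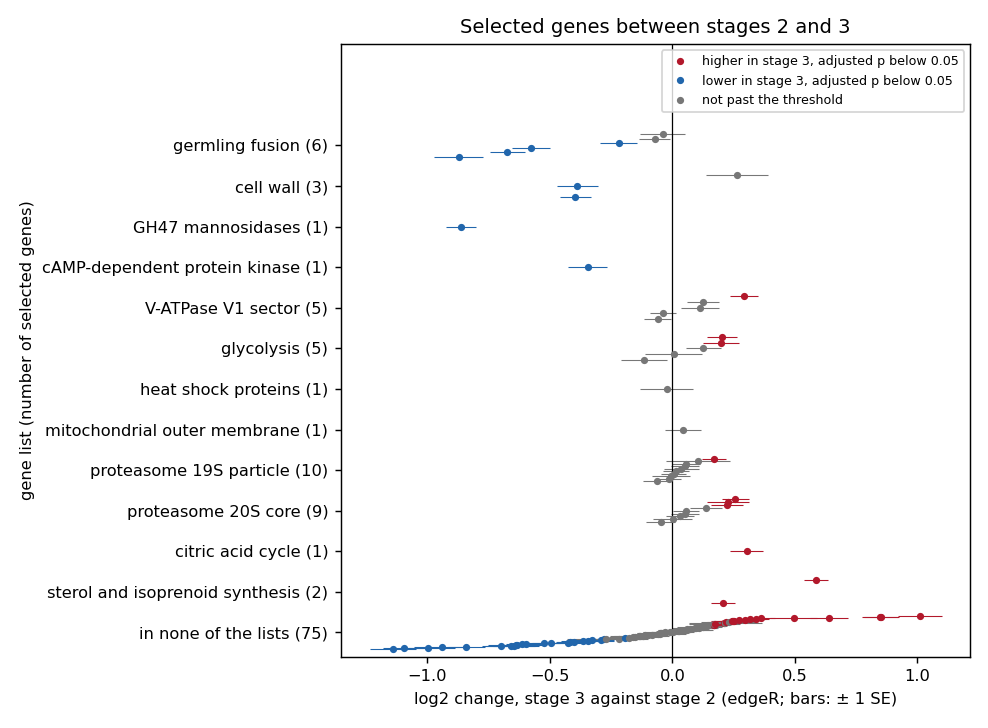
The x axis gives each member's log2 change for stage 3 against stage 2 (points) with 1 SE either side, by gene list (y axis, number of members in brackets), coloured red where higher and blue where lower at an adjusted p below 0.05. Called germling fusion members (4 of 6) are all lower, where 18.3% of all genes were lower. Called proteasome members (4 of 19) are all higher, a share close to the 20.8% of all genes that were higher. Of these, the calls for pca-3, rpt-3 and pcb-3 were each lost under some alternative settings. The 75 genes in none of the lists spread from -1.14 to 1.01.

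The largest decreases were in genes known only by a locus tag. NCU06361 (chromosome IV, bases 2789321 to 2791814 of NC12) had 36.8, 29.5 and 24.7 CPM in stage 1, 421, 413 and 441 CPM in stage 2, 196, 212 and 192 CPM in stage 3, and 425, 419 and 451 CPM in stage 4 (log2 change -1.14 ± 0.095 for stage 3 against stage 2, adjusted p = 1.0e-06, and 1.16 ± 0.095 for stage 4 against stage 3, adjusted p = 8.6e-07, edgeR). NCU07523 (chromosome III) had 45.5, 43.8 and 43.8 CPM in stage 1, 449, 448 and 553 CPM in stage 2, 239, 239 and 226 CPM in stage 3, and 455, 471 and 556 CPM in stage 4 (-1.09 ± 0.086, adjusted p = 6.3e-07, and 1.12 ± 0.086, adjusted p = 5.3e-07). In both genes every stage 3 library was below all those of stages 2 and 4 and above all those of stage 1. The lack of overlap with stages 2 and 4 was a condition for naming both genes. NCU08001 (-0.999 ± 0.11, adjusted p = 1.4e-05) and NCU02046 (-0.94 ± 0.11, adjusted p = 2.8e-05) followed, and NCU01768 was lower by 0.84. Of the 75 members in none of the lists, 18 were higher and 23 lower in stage 3, where 20.8% and 18.3% of all genes were, and 16.6% and 22.5% of genes with at least 100 CPM.

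By position, 41 of the 120 genes (34.2%) lay on chromosome I, which holds 24.1% of the coding genes of the table, and 12 (10%) on chromosome IV, which holds 15.2%. In the order of coding genes, 4 pairs of members were neighbours, 7 genes in all. The number of such pairs among 120 genes placed at random was not worked out. A run of 3 on chromosome I held rpt-4 (bases 6200201 to 6202221), gfa1 (6205457 to 6208984) and pcb-7 (6208916 to 6210424), and the other pairs were nox-1 with NCU02109, and NCU02541 with emp-1. The spans of gfa1 and pcb-7 overlap. In all, the spans of 43 members overlapped another gene, and the share over all genes was not worked out. Although the libraries kept strand, how reads in shared bases were divided is not given in the sources used here. The values of members with such an overlap are therefore less certain. Among the genes described, this holds for NCU06110, NCU06361, NCU00903, csr-1, emp-3, fpp, tca-16, gh47-4, gfa1, rpn-3, pca-3, pca-6, pcb-3, pcb-5, pcb-7, vma-4, vma-5, vma-7 and vma-10. Within the run, gfa1 was lower in stage 3 (-0.39) while rpt-4 (0.06 ± 0.057, adjusted p = 0.47) and pcb-7 (0.05 ± 0.057, adjusted p = 0.50) did not pass the test.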

How the data were processed

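RNA was sequenced from 12 libraries, 3 for each of 4 stages. The expected counts were deposited by the authors: per the study's methods, 101-bp paired-end strand-specific reads were trimmed, aligned with HISAT2 2.1.0 to the OR74A v12 genome, filtered on alignment quality and counted per gene with StringTie 1.3.3b and its prepDE script. A second deposited table, of the authors' expression estimates, was not used here. The counts were rounded to whole numbers. The 2 ribosomal RNA rows (1.68 to 37.7% of counts) stayed out of totals and tests. Symbols, chromosomes and spans came from the RefSeq table of assembly NC12, which held 10590 of the 10592 IDs.

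Values per library are CPM over library totals. Log2 changes and standard errors came from edgeR 4.0.16 (R 4.3.3), with TMM scaling and the quasi-likelihood test fitted to all 12 libraries, and 8334 genes passed filterByExpr (minimum count 10, minimum total 15). P-values were adjusted by the Benjamini-Hochberg method over all of them, with a threshold of 0.05. On counts simulated for stage 3 against stage 2, the test recovered 88.0% of 2-fold and 92.0% of 4-fold changes. For stage 4 against stage 3 it recovered 76% and 96%. Libraries were drawn independently, and smaller changes, such as those of most called members, were not simulated. The common biological coefficient of variation was 10.7%. A count of 3 corresponds to 0.0449 to 0.0710 CPM, and such floors cover counting error only.

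The members and gene lists were chosen with earlier results of these data known, and the lists were drawn up by gene symbol after the members had been seen. The genes described were the 10 members highest per kilobase, the 4 largest called rises and falls without overlap between libraries in each comparison, the 3 most abundant members of each list and the genes next to each limit. Coding lengths were not used here, so gene span took their place. Other genes named in passing were added after their values were seen. Sequences were not analysed here. P-values measure the spread between collections of plates.

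Alternatives were DESeq2 size factors, no scaling factor, the ribosomal RNA rows kept, no filter, stages 2 to 4 alone, DESeq2 1.42.0, a replicate block, a fold minimum of 2 and leaving out each library.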

Additional observations from a re-analysis of the deposited data

How the results depend on the processing

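The set held 94 to 136 genes under the other scalings, the median in place of the mean and the removal of a stage, and 115 to 125 with 1 library left out. These sets did not all contain the members described here. Of those members, 104 stayed with TMM factors, 94 with DESeq2 size factors and 91 with totals over all rows. With the median 115 stayed, without the stage 3 libraries 111, and with 1 library left out at least 114. The counts of members called stayed within 1.5 times the 59 and 55 reported under all settings but a required 2-fold change, which left 3 for stage 3 against stage 2 and 3 for stage 4 against stage 3. With 1 library left out, they were 46 to 61 for stage 3 against stage 2, 45 to 63 for stage 4 against stage 3 and 0 throughout for stage 4 against stage 2. Without a scaling factor, the median log2 change of the members was 0.058 for stage 3 against stage 2, where that of all genes was 0.053, and -0.061 for stage 4 against stage 3, where that of all genes was -0.053. With 1 library left out these medians ran from 0.0012 to 0.012 and from -0.030 (without stage 3 replicate 2) to 0.0065. Further alternatives were chosen after seeing the data: without the stage 4 libraries 55 members were called for stage 3 against stage 2, and without the stage 2 libraries 48 for stage 4 against stage 3. Replicate numbers did not pair the samples over all stages: deviations of the 18 same-numbered pairs from their stage means correlated at -0.38 to 0.35. A replicate block gave 58, 54 and 0 members called for the 3 comparisons. Between stages 2 and 4, same-numbered pairs correlated at 0.042, 0.23 and 0.35 for replicates 1, 2 and 3, and other pairs at -0.29 to 0.048. Their mean chi-square was 26.7, 18.7 and 12.9, where the lowest within any stage was 19.7. Whether these libraries were linked was not tested. For 85 called changes of the genes named in the text, at 1 step or the other, 20 alternatives each gave 1700 values, of which 1589 kept the call, 111 lost it and 0 changed direction. Lost calls fell on 24 of the 85 changes, those of csr-1, ndk-1, pca-3, pcb-3, rpt-3, rpn-12, emp-1, emp-3, emp-6, pgk, inl, vph-1, vma-3 and ham-6. The 3 libraries per stage limit what can be called: the median standard error over the members was 0.072 on the log2 scale.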
